A study of Mus musculus with 16 samples.

Results

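Zfp949 is 1 gene of the 40322 gene symbols in the count table, and 1 of the 21206 that passed the filter on low counts. It encodes a zinc finger protein with a KRAB domain. It was selected on these data: in subcutaneous white adipose tissue its library-size-scaled read count was higher in every library of the adipocyte-specific Nampt knockout (ANKO) than in every control library, at both ages studied. That this held whatever the adipocyte content was part of the selection. Its ANKO-against-control values are therefore given as a description, without a test.

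The mice were C57BL/6J, described by the series title as female, kept at room temperature on regular chow. ANKO mice joined a Cre transgene driven by adiponectin, an adipocyte gene, to floxed alleles of Nampt, the rate-limiting enzyme of NAD+ salvage from nicotinamide. Controls were flox/flox mice, so floxed Nampt was shared by both genotypes, and the labels name no Cre in the controls. Cre, its transgene and the loss of Nampt came together in the ANKO mice and cannot be told apart here. Young mice were 2 months old (3 control and 3 ANKO libraries), and old mice were 22 to 27 months old (5 control and 5 ANKO libraries). Whole tissue RNA was sequenced after removal of ribosomal RNA, to between 19277403 and 30779298 gene-assigned reads per library. The labels do not say whether each library came from its own mouse, so p-values measure the spread between these libraries.

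KRAB zinc finger proteins bind DNA through tandem C2H2 fingers, each folded around a zinc ion. Their KRAB domain recruits the corepressor TRIM28, which brings the histone methyltransferase SETDB1 and heterochromatin proteins to the bound site, and many of these proteins silence transposable elements. The genes are numerous in mammals and many stand in clusters of similar copies. In fat, zinc finger proteins outside the KRAB class, such as ZFP423 and ZFP521, are known regulators of preadipocyte commitment.

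Zfp949 (ENSMUSG00000032425.15) lies on the plus strand of chromosome 9 in GRCm38, from 88548020 to 88571061, with 5 annotated transcripts and 4110 bases of exon. Its longest coding transcripts, which differ outside the coding part, give the same protein length, 603 residues. A match to the start of a KRAB domain begins at residue 8, and 11 matches to the C2H2 pattern run from residue 298 to residue 578. A short transcript codes for 47 residues, with the same match to the start of a KRAB domain and no match to the C2H2 pattern. The counts are per gene and do not separate these transcripts. None of the 3398 windows of 75 bases along the longest transcript occurs in an annotated transcript of another gene, and no exon of Zfp949 overlaps an exon of another gene.

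The 250 bases before the annotated start, at chr9:88547770-88548019 on the plus strand (RefSeq, GRCm38.p6), are shown because the difference between genotypes is one of RNA level at this gene. Capitals mark the CpG pairs.
Zfp949 promoter: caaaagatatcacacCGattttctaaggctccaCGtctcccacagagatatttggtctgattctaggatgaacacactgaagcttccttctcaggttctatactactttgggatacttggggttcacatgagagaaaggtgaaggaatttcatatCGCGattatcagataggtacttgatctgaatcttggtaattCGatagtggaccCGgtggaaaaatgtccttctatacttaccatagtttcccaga
The window holds 6 CpG pairs, which is also the median over 32851 promoters of the same length, and has a GC content of 41.2%, against a median of 52.4%. On both strands, it contains none of the letters TGACGTCA (cAMP response element, in 1.55% of these promoters), TGATGNAA (amino acid response element, 3.45%), CACGTG (E-box, 6.02%), TTGCNNAA (C/EBP site, 9.56%) or CCAAT (33.8%), and no PPAR response element (0.0335%). This says only that these letters are not in this window.

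The floxed gene was examined first. Nampt was at 86.3, 95.4 and 89.0 CPM (the usual read count scaled to library size, here with TMM factors) in the 3 young controls and at 49.8, 51.7 and 48.7 CPM in the 3 young ANKO libraries, which do not overlap. Its log2 fold change in young mice was -0.85 ± 0.17 (SE), with an adjusted p of 0.0429 by edgeR's quasi-likelihood test with Benjamini-Hochberg adjustment. Leaving out any 1 of the 6 young libraries raised that adjusted p to between 0.0927 and 0.257, with log2 fold changes from -0.87 to -0.80. In old mice the Nampt ranges overlapped, at 47.2 to 78.6 CPM in controls against 45.0 to 54.1 CPM in ANKO, with a log2 fold change of -0.35 ± 0.13 (edgeR adjusted p = 0.0945). Without old control replicate 3 or 4 the old difference passed, with adjusted p of 0.0188 and 0.0443. Whole tissue holds many cells outside the reach of an adipocyte Cre, and in bulk RNA fewer cells of a type and less RNA per cell cannot be told apart.

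Zfp949 was at 15.2, 14.5 and 12.9 CPM in the young controls (14.2 ± 1.19, SD, n = 3) and at 42.3, 37.0 and 36.8 CPM in the young ANKO libraries (38.7 ± 3.13, SD, n = 3). All 3 young ANKO libraries stood well above all 3 controls. In old mice the control libraries were at 16.3, 18.2, 19.96, 20.6 and 20.8 CPM (19.2 ± 1.89, SD, n = 5). The old ANKO libraries were at 54.4, 40.7, 42.6, 44.3 and 45.5 CPM (45.5 ± 5.30, SD, n = 5). Again no ANKO library reached down to a control, and old ANKO replicate 1 was the highest of all 16.

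The fitted log2 fold change of Zfp949, ANKO over control, was 1.44 ± 0.13 (SE) in young mice, or 2.72-fold. In old mice it was 1.25 ± 0.10, or 2.37-fold. The lowest young ANKO library was 2.42 times the highest young control, and the lowest old ANKO library was 1.95 times the highest old control. With both ages together, the nearest values across the gap were young ANKO replicate 3 at 36.8 CPM and old control replicate 5 at 20.8 CPM, a ratio of 1.77. For scale, 67 of the 21206 genes tested passed an adjusted p of 0.05 in young mice (0.316%; 0.165% higher and 0.151% lower) and 2337 in old mice (11.0%; 2.99% higher and 8.04% lower). Every ANKO library lay above every control for 9.11% of genes in young mice, 2.14% in old mice, 0.542% at each age and 0.217% with the ages pooled. Zfp949 belongs to each of these sets by the way it was selected.

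**Figure D1:**
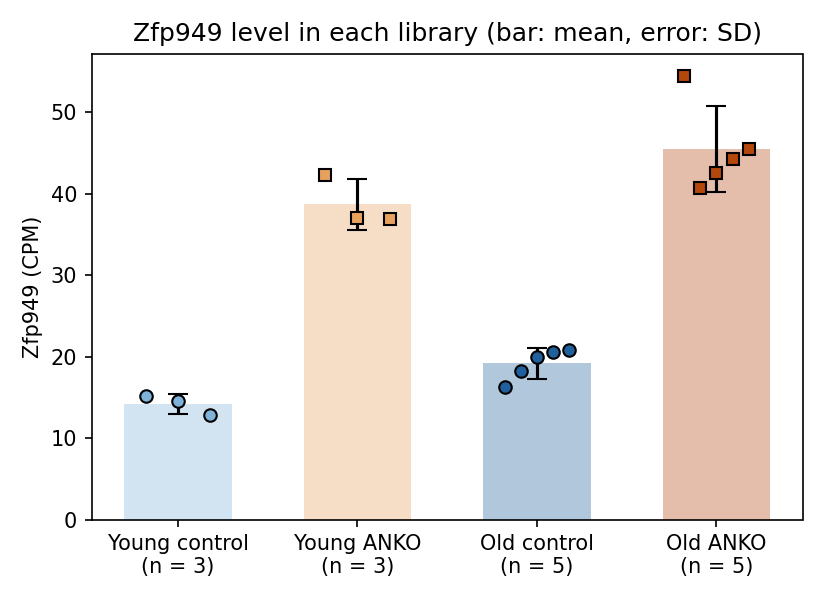
Zfp949 level in CPM (vertical axis) in the 16 libraries of 4 groups; points are libraries, bars are group means and error bars are SD. The 8 ANKO libraries lie between 36.8 and 54.4 CPM and the 8 control libraries between 12.9 and 20.8 CPM.

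Depth did not limit these values much. The libraries held from 245 to 1135 Zfp949 reads each. Counting error alone would give a coefficient of variation of 5.95% in young controls, 3.43% in young ANKO, 4.76% in old controls and 3.18% in old ANKO. The observed coefficients were 8.38%, 8.08%, 9.87% and 11.7%, in the same order. The spread within each group was thus larger than counting error.

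The difference between old and young mice of 1 genotype was not itself named in the selection and was tested. It rests on the same values, and a gap between genotypes with the ages pooled limits the size such a difference can have. In controls, all 5 old libraries lay above all 3 young ones, and Zfp949 was 0.43 ± 0.12 (SE) higher on the log2 scale in old mice. That difference did not pass edgeR's quasi-likelihood test (adjusted p = 0.112), whereas DESeq2 gave 0.42 with an adjusted p of 0.0314. In that comparison 0.490% of genes passed the edgeR test. In ANKO mice, 4 of 5 old libraries lay above all young ones, with a log2 difference of 0.23 ± 0.11 (edgeR adjusted p = 0.267). There 6.34% of genes passed. The ANKO effect on Zfp949 in old mice minus that in young mice was -0.20 ± 0.16 on the log2 scale, and did not pass (edgeR adjusted p = 0.722). Both of these effects were part of the selection, so that result cannot show that they are alike. Only 1 gene, 0.00472% of those tested, passed the test of that difference between ages.

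From lowest to highest, the groups ran young control, old control, young ANKO and old ANKO. The first neighbours did not overlap but did not pass the edgeR test, and the last overlapped, since old ANKO replicate 2 (40.7 CPM) was below young ANKO replicate 1 (42.3 CPM).

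The tissue itself differed between groups, so the Zfp949 values are set beside markers of cell types. Adipocyte genes go with the label of the tissue as fat, although some libraries also had high skeletal muscle markers, given below. The 25 adipocyte markers, all detected, summed to between 48168 and 77002 CPM in young controls and between 29679.8 and 53408 CPM in young ANKO. In old mice the sum spanned 22791 to 60116 CPM in the control libraries, and only 4037 to 9459.5 CPM in ANKO. Of the 25 markers, 3 passed as lower in young ANKO, against 0.151% of all genes, and 25 in old ANKO, against 8.04%, and none as higher. Across the old controls, Adipoq, which encodes adiponectin, varied 3.63-fold, from 405.5 to 1473 CPM, while Zfp949 varied 1.28-fold. Old control replicate 3 had the lowest adipocyte sum of any control, 22791 CPM, and Zfp949 at 19.96 CPM. Young ANKO replicate 2 had a sum of 53408 CPM, above that of 4 of the 5 old controls, and Zfp949 at 37.0 CPM. Zfp949 was selected as apart by genotype whatever the adipocyte content, so these values describe the selection and are no separate evidence. The part of adipocyte content in the Zfp949 difference was not tested.

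Mast cell markers were also examined. Of 8 mast cell markers, 3 passed as higher in young ANKO, against 0.165% of all genes, and 5 in old ANKO, against 2.99%, and none as lower. Their summed level was 71.1 to 141 CPM in the young control libraries, below the 158 to 216 CPM of young ANKO. At the old age it was 207 to 309 CPM in control and 255 to 394 CPM in ANKO libraries. In each group most of the mean sum is Kit, a receptor that cells other than mast cells carry too, with means of 86.9 (control) and 119 CPM (ANKO) in young mice and 200.4 and 195 CPM in old mice. Kit passed at neither age (log2 fold changes 0.46 and -0.04, edgeR adjusted p = 0.994 and 0.957). Without Kit, a choice made after the values were seen, the other 7 markers summed to 27.3 to 35.4 CPM in young controls, 47.3 to 67.1 CPM in old controls, 73.3 to 79.8 CPM in young ANKO and 123 to 211 CPM in old ANKO. That sum without Kit has the group order of Zfp949, and all 8 ANKO libraries lie above all 8 controls. Among single genes 0.217% lie apart in this way, which is no background for a sum trimmed after its values were seen. The sum with Kit overlaps, as do the full sums of all 12 marker lists. Fcer1a, with group means from 0.158 to 0.887 CPM, gave -0.34 ± 1.05 in young and 1.12 ± 0.69 in old mice and passed at neither age. The part of mast cells in the Zfp949 difference was not tested.

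Markers of other cell types are given beside these. Macrophage marker sums did not overlap in young mice, at 657 to 744 CPM in controls and 849.8 to 1025 CPM in ANKO. Among single genes, 9.11% had every young ANKO library above every young control. Endothelial sums did not overlap in young mice either, with the ANKO libraries lower. The share of single genes apart in that direction is not given. In old ANKO 4 of 10 macrophage and 4 of 10 fibroblast and preadipocyte markers passed as higher, against 2.99% of all genes. There 3 of 8 brown adipocyte markers passed as lower, against 8.04% of all genes. For endothelial markers it was 1 of 10, near that share. Skeletal muscle sums spanned 1434 to 8866 CPM in young controls and 93.4 to 17104 CPM in young ANKO. In old mice they spanned 67.4 to 38939 CPM (control) and 202 to 21865 CPM (ANKO). In old ANKO replicates 2 and 5 muscle exceeded the adipocyte sum (21865 against 9459.5 CPM and 15735 against 4899.6 CPM). B cell sums (26.7 to 1875 CPM) and mammary epithelium sums (259 to 8503 CPM) also varied widely. All of these overlapped between genotypes at each age. With a score of the adipocyte markers as a covariate, the log2 fold change of Zfp949 was 1.34 in young and 0.98 in old mice, and with a mast cell score 1.42 and 1.21. Both scores themselves move with genotype. These adjusted values are given without an SE, so their precision is not shown. Which cells of the tissue carry the Zfp949 transcript was not tested.

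**Figure D2:**
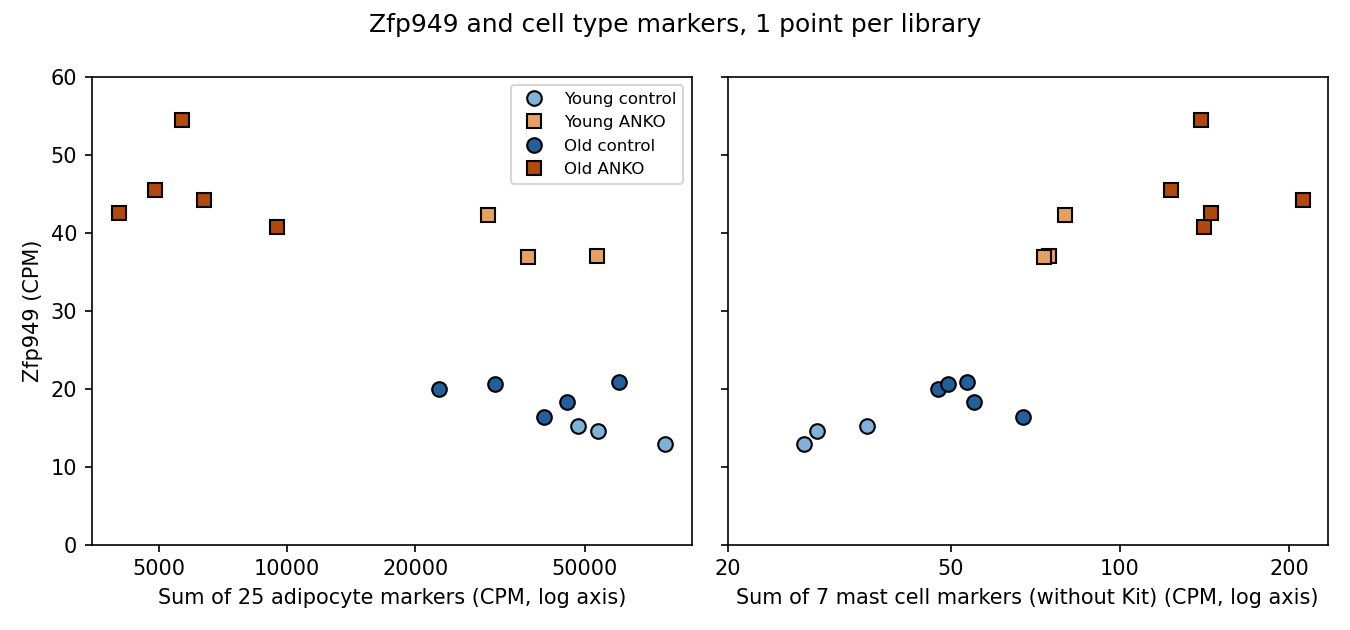
Zfp949 (CPM, vertical axis) against the summed level of 25 adipocyte markers (left) and of 7 mast cell markers without Kit (right), both in CPM on a log axis; each point is 1 of 16 libraries. Adipocyte sums of old controls and young ANKO overlap, while the mast cell sums without Kit reach 67.1 CPM in controls and start at 73.3 CPM in ANKO. Kit was left out after the values were seen, and the sum with Kit overlaps.

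Zfp949 was next set among the other genes whose symbol is Zfp with a number, 398 in the table and 364 tested. The symbol gathers several kinds of zinc finger and is no strict C2H2 family. On a scale that allows levels of different genes to be compared, CPM per kilobase of exon (RPKM), Zfp949 was at 3.46 RPKM in young controls, which placed it 144th of 365. It was at 9.42 RPKM in young ANKO (33rd), 4.67 RPKM in old controls (100th) and 11.1 RPKM in old ANKO (25th). The median level over these genes was 2.73 RPKM in young controls, 2.53 in young ANKO, 2.60 in old controls and 2.62 in old ANKO. The log2 fold change of Zfp949 was the highest of the 365 at each age, as described by the same values that selected it. The next were Zfp593 in young mice (1.34 ± 0.78, edgeR adjusted p = 0.855) and Zfp575 in old mice (1.09 ± 0.45, adjusted p = 0.139), neither of which passed.

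None of the other 364 passed the edgeR test in young mice. Of them, 16 had an unadjusted p under 0.05 and DESeq2 called 4. Counts of these 2 kinds are given, here and below, without a share over all genes. Their median log2 fold change was -0.03, against 0.01 over all genes. In old mice 3 passed as higher and 4 as lower (1.92%, against 11.0% of all genes), with a median of 0.03, against 0.01 over all genes. These 7 are named because they are few. Zfp185, whose product carries a LIM domain rather than C2H2 fingers, fell by 1.80 ± 0.23 on the log2 scale in old ANKO (edgeR adjusted p = 0.000237), from 26.8 ± 8.67 to 7.70 ± 2.02 CPM (SD, n = 5 each). Zfp423, a preadipocyte commitment factor, fell to 0.367 of its control level (adjusted p = 0.00808), from 87.4 ± 51.1 to 32.1 ± 7.03 CPM. Zfp467 and Zfp503 passed as lower at -0.49 and -0.58. Zfp992 rose by 0.73 ± 0.18 (adjusted p = 0.0153), Zfp521, which restrains adipocyte commitment, by 0.58 ± 0.13 (adjusted p = 0.00989), and Zfp709 by 0.46 ± 0.13 (adjusted p = 0.0299). With the adipocyte score as a covariate none of the 7 passed, and the signs of Zfp423, Zfp467 and Zfp503 turned. Leaving out old control replicate 1, 2 or 5 or old ANKO replicate 1, 3, 4 or 5 also lost Zfp503 (adjusted p up to 0.144), and old control replicate 2 or 5 or old ANKO replicate 2, 3 or 4 lost Zfp709 (up to 0.0657). The count of 7 became 17 without old control replicate 3, 14 without old control replicate 4 and 19 with DESeq2. The shares of all genes passing under those settings are not given, so these changes cannot be set against a background. No gene of this list passed at both ages, as 0.184% of all genes did in the same direction.

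**Figure D3:**
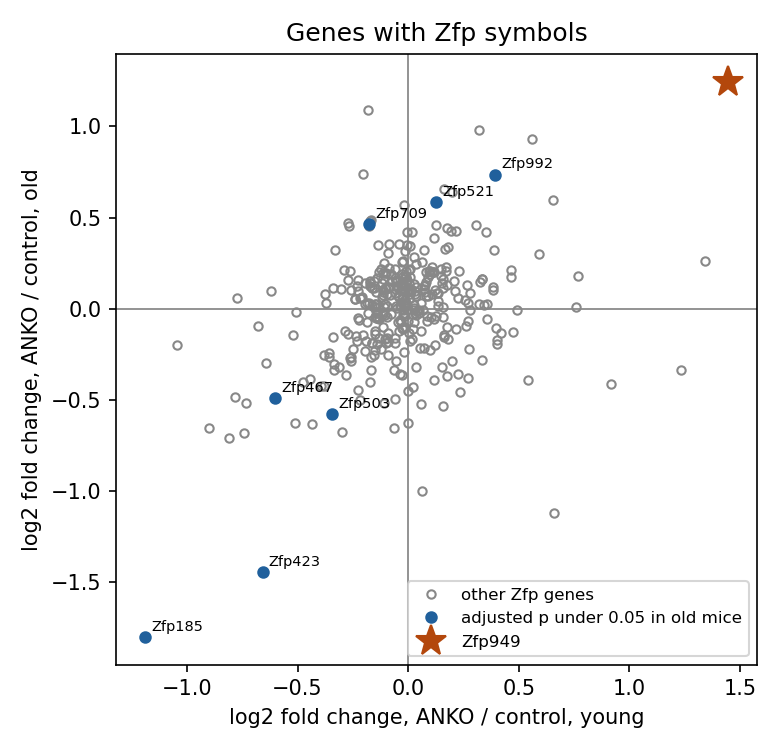
Log2 fold change, ANKO over control, in young (horizontal axis) and old mice (vertical axis) for 365 genes with Zfp symbols; the star is Zfp949, filled points are the 7 others with an adjusted p under 0.05 in old mice, open points the rest. Zfp949 lies alone at the upper right, at 1.44 and 1.25.

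The partners through which KRAB proteins repress were measured as a list of 21 genes, all of which passed the filter on low counts. In young mice none passed the edgeR or the DESeq2 test, and 1 had an unadjusted p under 0.05. Their median log2 fold change was -0.03. Trim28, the corepressor that KRAB binds, was at 115 CPM in young controls and 111 CPM in young ANKO, and at 118 CPM in old controls and 126 CPM in old ANKO (log2 fold changes -0.06 ± 0.12 and 0.10 ± 0.09, edgeR adjusted p = 1.00 and 0.563). Setdb1, the histone H3 lysine 9 methyltransferase, gave 0.01 ± 0.11 and 0.06 ± 0.09 (adjusted p = 1.00 and 0.72). In old mice 1 of the 21 passed, or 4.76% against 11.0% of all genes: Dnmt3a, a de novo DNA methyltransferase, rose by 0.26 ± 0.07 (edgeR adjusted p = 0.0294), from 144 ± 4.10 to 172 ± 12.0 CPM (SD, n = 5 each). Leaving out old control replicate 1, old ANKO replicate 2 or old ANKO replicate 5 lost this call, with adjusted p between 0.0528 and 0.0768.

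The genes around Zfp949 were examined next. Within 2 Mb of either end of the gene, 80 other genes are in the table and 38 were tested. In young mice none of the 38 passed the edgeR test, 7 had an unadjusted p under 0.05 and DESeq2 called 1. Their median log2 fold change was -0.03, with a range from -1.81 to 1.73. In old mice 2 passed as higher and 3 as lower, or 13.2% against 11.0% of all genes, with a median of -0.08. Those 5 calls became 3 without old control replicate 5 or without old ANKO replicate 2, 3 or 4. Nearer the gene, within 1 Mb, 17 genes were tested. Their medians were -0.19 in young and -0.17 in old mice, against 0.01 over all genes. None passed in young mice, and in old mice 2 passed as lower and 0 as higher (11.8%, against 11.0% of all genes). Snhg5, a host gene of small nucleolar RNAs and the nearest tested gene upstream, at -25.1 kb, gave -0.02 ± 0.23 in young and -0.34 ± 0.18 in old mice (edgeR adjusted p = 1.00 and 0.252). Trim43a, 9.83 kb downstream, had group means from 0.266 to 0.949 CPM and gave -1.81 ± 0.58 and -0.48 ± 0.44 (adjusted p = 0.312 and 0.536). Gm26461, a small RNA annotated inside the Zfp949 gene body without touching its exons, gave 0.31 ± 0.53 and -0.93 ± 0.41 (adjusted p = 1.00 and 0.174). The 3 young ANKO values of Trim43a all lay below the 3 young controls, so a difference there was not detected by the test rather than shown to be absent.

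Of the 5 neighbours that passed in old mice, the closest was the long noncoding RNA 9430037G07Rik, 24.3 kb downstream. It was at 2.14, 2.58, 2.35, 2.15 and 3.15 CPM in old controls and at 0.911, 0.641, 0.0424, 0.807 and 0.417 CPM in old ANKO. Its log2 fold change was -2.13 ± 0.54 (edgeR adjusted p = 0.019), opposite in sign to that of Zfp949, with no overlap between the groups. In young mice it gave -1.57 ± 0.69 (adjusted p = 0.635). The transcript 9330159M07Rik, 269 kb downstream, gave -0.80 ± 0.23 in old mice (adjusted p = 0.0384), and leaving out old control replicate 1, 2 or 5 or old ANKO replicate 2, 3, 4 or 5 lost that call, with adjusted p up to 0.126. Me1, the cytosolic malic enzyme that supplies NADPH for fat synthesis, lies upstream at -1852 kb and fell by 2.16 ± 0.46 (adjusted p = 0.00778). The old controls spanned 153 to 901 CPM, and the old ANKO libraries, all lower, 81.6 to 147 CPM. Snap91, a clathrin assembly protein, passed as higher at 2.78 ± 0.80 (adjusted p = 0.0373), but only old ANKO replicates 2 and 3, at 9.22 and 6.23 CPM, exceeded the old control maximum of 1.03 CPM. Without either of those libraries its adjusted p was 0.103 or 0.0839, and omission of old control replicate 2, 3 or 5 also lost the call (adjusted p = 0.0757, 0.0529 and 0.0913). Tbc1d2b, which carries a Rab GTPase-activating domain, rose by 0.35 ± 0.09 (adjusted p = 0.021), a call lost without old ANKO replicate 1 or 4 (adjusted p = 0.0573 and 0.0548). All of these but Snap91 share exon sequence with another annotated gene, and whether the counting used strand was not stated in the sources.

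For comparison, 27 tested genes within 2 Mb of Nampt included none that passed in young mice. In old mice 4 passed as lower (14.8%, against 8.04% of all genes), a count of 7 without old control replicate 3. Within 2 Mb of Adipoq, 38 tested genes included none in young mice and 2 higher and 2 lower in old mice (10.5%, against 11.0% of all genes). Where the Cre transgene lies is not given here, so the Adipoq window need not hold it. In young mice 3 genes around Nampt and 2 around Adipoq had an unadjusted p under 0.05 by edgeR, and DESeq2 called 0 in each window. The shares over all genes are not given, so these counts cannot be set against a background.

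**Figure D4:**
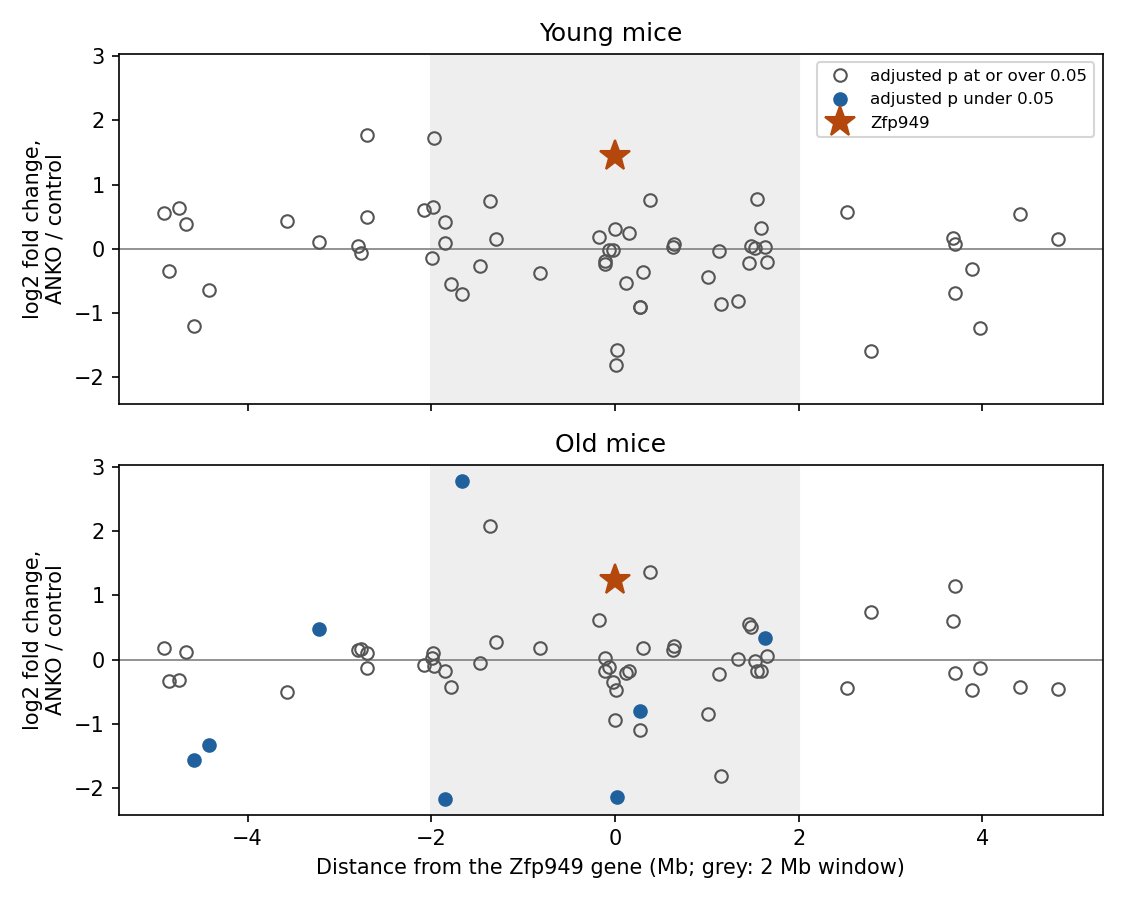
Log2 fold change, ANKO over control (vertical axis), of tested genes against their distance from Zfp949 in Mb (horizontal axis), in young (top) and old mice (bottom); the star is Zfp949, filled points have an adjusted p under 0.05 and the grey band is the 2 Mb window. Zfp949 stands at 1.44 and 1.25, the medians of its neighbours in the band at -0.03 and -0.08. Within 1 Mb the medians are -0.19 and -0.17, against 0.01 over all genes.

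Genes whose levels followed Zfp949 were looked for among 17341 others with a mean of at least 1 CPM, by Pearson's r of log2 CPM over the 16 libraries. Because the libraries form 2 genotypes, r mostly reflects that shared step, so r after removal of the 4 group means is given too, as a description. The highest was Penk, which encodes the opioid precursor proenkephalin (r = 0.91, and 0.50 after removal). Mark1, a kinase of microtubule-associated proteins, followed (0.90 and 0.44). Cma1, Tpsb2 and Mcpt4, which encode mast cell chymase, tryptase and a further granule protease, were each at r = 0.89, and at -0.17, 0.03 and -0.22 after removal. Cep295nl was at 0.89 and 0.49, Ms4a7, a membrane protein of macrophages, at 0.88 and 0.18, and the receptor gene Mrgprx2 at 0.88 and -0.08. For the mast cell protease genes, r within groups was near 0 or below, a value that does not describe the step between genotypes. Of 6 mast cell list genes with a mean of at least 1 CPM, 4 were among the 60 highest of the 17341.

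With the ages pooled, the ANKO and control libraries overlapped for 5 of these 8 genes, Penk, Mark1, Cma1, Tpsb2 and Mrgprx2. Mcpt4, Cep295nl and Ms4a7 stayed apart by little: the highest control and lowest ANKO values of Mcpt4 were 20.3 and 21.3 CPM. Tpsb2 was at 6.74 to 9.76 CPM in young control and 17.2 to 22.8 CPM in young ANKO libraries. Among old mice the controls spanned 11.7 to 17.6 CPM, and the ANKO libraries 30.1 to 52.9 CPM. Its highest old control lay above its lowest young ANKO library. Penk ran from 5.74 to 14.6 CPM in young controls and from 14.1 to 40.8 CPM in young ANKO, which overlap, and from 9.39 to 14.0 and from 29.6 to 42.2 CPM in old mice, which do not.

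Of 17342 genes with a mean of at least 1 CPM, 45 had all 8 ANKO libraries above all 8 controls and 181 had them all below. Ordered by the gap on the log2 scale between the lowest ANKO and the highest control library, Zfp949 was the second of the 45, with a gap of 0.82. That gap comes from the values that selected Zfp949, so its place in the order is only a description. Gdf15, a stress-induced secreted factor, was the first at 0.87. It was at 0.181 to 1.63 CPM in young controls, 17.6 to 34.8 CPM in young ANKO, and in old mice at 0.335 to 2.65 CPM (control) and 4.92 to 9.71 CPM (ANKO). Within ANKO, the old Gdf15 values lay below the young ones, whereas the Zfp949 ranges of young and old ANKO met.

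The genes after Zfp949 in this order had smaller gaps. Hpgds, a prostaglandin D synthase, had a gap of 0.34, Tsku, a secreted leucine-rich proteoglycan, 0.23, Eif4a2, an RNA helicase of translation initiation, 0.22, and Col27a1, a fibrillar collagen, 0.19. Tsku was at 55.0 to 107 CPM in young ANKO and 15.8 to 22.9 CPM in old ANKO, against at most 13.4 CPM in any control. Eif4a2 had a log2 fold change of only 0.35 in young and 0.51 in old mice. Its young controls spanned 217 to 234 CPM and its old controls 161 to 227 CPM. The young ANKO libraries spanned 281 to 301 CPM and the old ones 272 to 305 CPM. Of the 45 genes, 4 were on chromosome 9, Zfp949 among them, as were 962 of the 17342. The other chromosome 9 genes, the pseudogene Gm16353, Tgfbr2 and Limd1, lie at -13.4, 27.5 and 34.9 Mb from Zfp949.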

How the data were processed

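The data are gene-level read counts of 16 libraries, deposited as 1 table. Per the submitters' processing notes, the authors used STAR 2.0.4b, Subread and featureCounts 1.45 with GRCm38. The annotation release, strand setting and treatment of multiply mapped reads were not stated in the sources. Of 40757 lines, 322 repeated another in full and 113 more were dropped for a line of the same symbol with more reads. Another 24 symbols, with 0.126% of reads, had been turned into dates.

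Counts were tested with edgeR 4.0.16 (TMM, filterByExpr, robust quasi-likelihood F-test, 1 model of 4 groups, Benjamini-Hochberg over 21206 genes, threshold 0.05), tested on simulated counts with known changes. Positions come from GENCODE M21 by symbol, and the promoter from RefSeq. Named genes are Zfp949, Nampt, Adipoq, neighbours within 2 Mb that passed and the nearest ones, the 8 most alike and those with the widest gaps, predicted models left out; other Zfp genes, KRAB partners and chromosome 9 genes were named after their values were seen. Zfp949 and the gene lists were chosen with earlier results of these data known. No 2 libraries of a group agreed within counting noise. Alternatives were DESeq2 1.42.0, other scalings and filters, a replicate block, marker scores as covariates, only the groups compared, other windows, repeated symbols summed and leaving out each library.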

Additional observations from a re-analysis of the deposited data

Results flagged for a closer look

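In groups of 5 libraries, a single library can lie far from the other 4. Of 32 genes named here, looked at in both old groups (64 groups in all), 6 groups had such a library, while chance flags about 1 in 20. Zfp949 had none, although old ANKO replicate 1 was its highest. Gm26461, the small RNA inside Zfp949, was at 294 CPM in old control replicate 1, with the other old controls between 39.9 and 106 CPM, and at 88.2 CPM in old ANKO replicate 2, with the other old ANKO libraries between 48.7 and 59.2 CPM. The neighbour 9330159M07Rik was at 5.61 CPM in old ANKO replicate 1, against at most 3.90 CPM in the others. Among the genes alike in level, Mark1 was at 17.6 CPM in old ANKO replicate 3 (others from 22.7 CPM), Cma1 at 35.7 CPM in old ANKO replicate 4 (others up to 24.5 CPM) and Cep295nl at 8.53 CPM in old control replicate 1 (others from 10.7 CPM).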

How the results depend on the processing

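The log2 fold change of Zfp949 stayed between 1.34 and 1.51 in young mice under all alternatives run, and between 0.98 and 1.38 in old mice, where the lowest value came with the adipocyte score as a covariate. Its age difference in controls passed with DESeq2 only (0.42, adjusted p = 0.0314). Replicate numbers did not pair the libraries (same-number correlations from -0.08 to 0.54), and with a replicate block the effects on Zfp949 were 1.44 and 1.24. With DESeq2 the counts of passing genes were 1 (young) and 9 (old) around Zfp949 and 4 and 19 among Zfp genes. Library totals alone gave 2 and 12 Zfp genes, and the block 1 young Zfp gene and 0 old KRAB partners. With only the groups compared, counts were 4 young Zfp genes, 2 old neighbours of Zfp949, 3 young neighbours of Nampt, 2 old neighbours of Adipoq and 0 old partners. Without a filter, 3 old neighbours of Zfp949 and 0 old partners passed. Windows of 1 and 5 Mb held 2 and 8 old calls (11.8% and 13.3% of those tested, against 11.0% of all genes). With the adipocyte score, 1 young neighbour and 2 young Zfp genes passed, and with either it or the mast cell score (chosen after seeing the data) all 5 old counts were 0. Leaving out 1 library gave 3 to 7 old neighbours of Zfp949, 5 to 17 Zfp genes (most without old control replicate 3), 0 to 1 partners and 3 to 7 neighbours of Nampt. For counts under other tools, settings or sets of libraries, here and above, the share over all genes is not given. Changes in those counts cannot be set against a background. Nampt in young mice did not pass with a stricter filter (-0.85, adjusted p = 0.0567), the adipocyte score (-0.56), the mast cell score (-0.64) or without 1 library (-0.87 to -0.80). In old mice it ran from -0.44 to -0.24 without 1 library and turned to 0.41 with the adipocyte score. That score also turned the old values of 9330159M07Rik (0.59), Gm26461 (0.80), Zfp423 (1.06), Zfp467 (0.10) and Zfp503 (0.79). Snhg5 in young mice ran from -0.10 to 0.087 without 1 library, turning sign without young control replicate 2 (0.03) or young ANKO replicate 1 (0.087). The cause of these changes was not tested. A list of C2H2 genes by protein motif was not run, since no protein table was used here.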
